A study of Capra hircus with 6 samples.

Results

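Neurons of the hypothalamus that release glutamate or GABA can be told apart by the transcripts for making or loading these transmitters. Such genes, and others that clear or break down GABA, 8 in all, were followed here through 4 libraries of goat medio-basal hypothalamus. They were taken by symbol from a table of 28907 genes: the vesicular glutamate transporters SLC17A6, SLC17A7 and SLC17A8, the GABA-synthesizing enzymes GAD1 and GAD2, the vesicular GABA transporter SLC32A1, the plasma membrane GABA transporter SLC6A11 and the GABA-degrading enzyme ABAT. All 8 were found, each as 1 row, and all 8 were among the 16756 genes with enough counts to be tested.

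The tissue came from 18 adult Alpine goats (Capra hircus), with 5 goats of the January follicular phase (before ovulation), 5 of the January luteal phase (after it) and 8 in anestrus (mid-May, when ovarian cycles have stopped). RNA of the goats of a condition was combined into 2 pools, and each pool was sequenced as 1 library. No treatment, transgene or genotype is named for any group. The comparison is between 2 follicular and 2 anestrus pools, and the luteal libraries were not analysed here. Season and ovarian state differ together between these groups and cannot be told apart. The number of goats per pool, and whether the pools of a condition share goats, are not stated. Every p-value therefore rests on the spread between pools, estimated in part over all genes, and that spread may be partly technical.

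Glutamate is the main fast excitatory transmitter of the brain and GABA the main inhibitory one. A neuron that releases glutamate loads it into vesicles with a transporter of the SLC17A6 to SLC17A8 family. One that releases GABA makes it from glutamate by decarboxylation and loads it with the transporter encoded by SLC32A1. Released GABA is cleared into neurons and astrocytes by plasma membrane transporters, among them that of SLC6A11, which in brain is found mainly on astrocytes, and is then broken down by the transaminase that ABAT encodes. In the medio-basal hypothalamus both kinds of neuron lie among the cells that control pituitary hormone release, and both act on the neurons that drive gonadotropin secretion.

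Library totals ran from 14553821 to 25292678 counts. Neuron markers were abundant in all 4 pools, with a summed level of 5388 to 7177 CPM (counts scaled to a common library size, normalized by TMM). Pituitary transcripts were also present in every pool, at a summed 4407 to 5413 CPM in the follicular phase and 11296 to 14537 CPM in anestrus over the 6 tested markers, most of it CGA, which encodes the alpha chain shared by thyrotropin and the gonadotropins. POU1F1, a transcription factor of the pars distalis, had 2 to 5 counts in 3 pools and 37 in anestrus pool 2. Levels below are compared between pools for 1 gene at a time, because transcript lengths, needed to rank genes against each other, were not used here.

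The fitted level of each of the 8 genes was higher in the follicular phase than in anestrus, by 1.16-fold for GAD1 to 3.51-fold for SLC17A7, but none passed edgeR's quasi-likelihood test at an adjusted p of 0.05. Of all genes, 49.9% had a fitted change in that direction. Over all genes, 34 passed (0.203%), 2 of them higher in the follicular phase (0.0119%). SLC6A11 came closest, with an adjusted p of 0.066 (edgeR) and the 46th smallest p of the 16756 genes. At an unadjusted p under 0.05 there were 5 of the 8, all higher in the follicular phase, beside 4.26% of all genes in that direction and 8.55% in either. The DESeq2 Wald test called 1 of the 8, SLC6A11, and 143 of the 16756 genes, while limma-voom called 0 of the 8 and 32 of all genes. Pools of the 2 groups did not overlap for 7 of the 8 genes, all higher in the follicular phase, where 17.6% of all genes showed that order and 20.7% the opposite one. The median log2 fold change of the 8 was 0.53, beside 0.00 for all genes tested. In such bulk tissue, fewer cells of a type and less RNA per cell cannot be told apart.

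**Figure D1:**
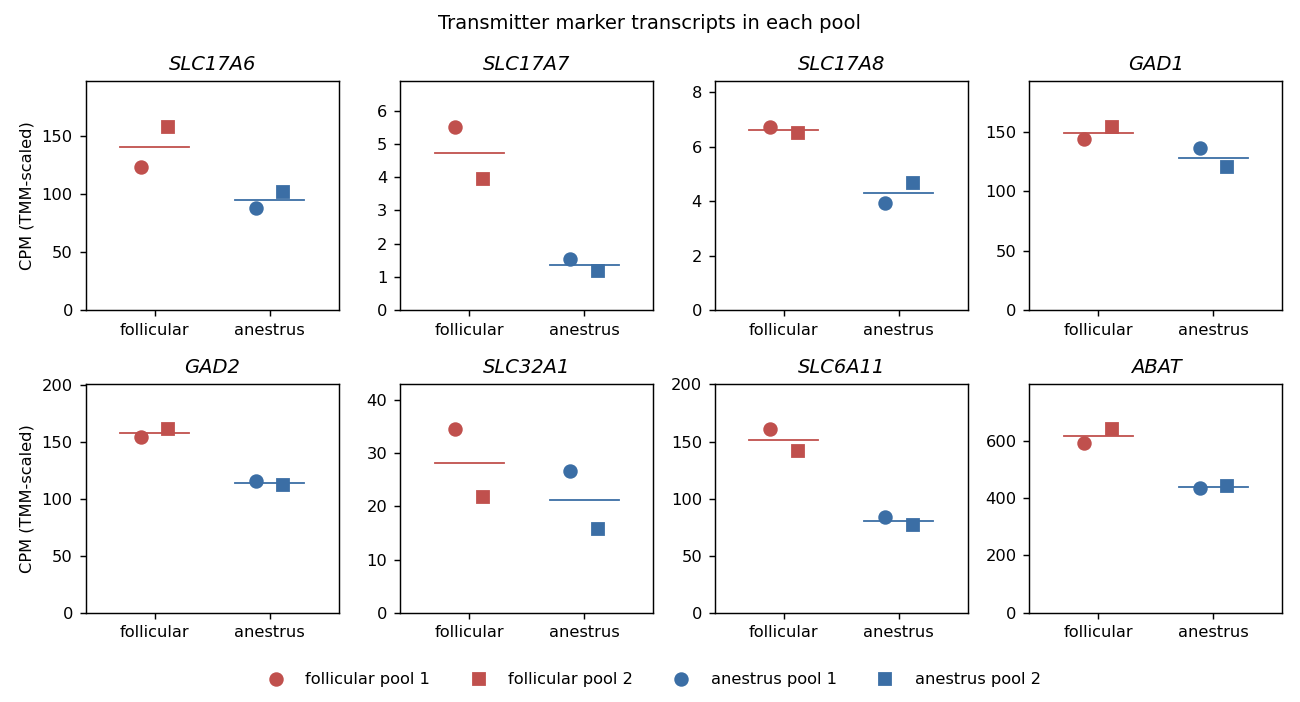
Level of each of the 8 genes in each pool, in TMM-scaled CPM on a linear axis from 0, with the pool number shown by the symbol and the group mean by a line. The pools of the groups overlap for SLC32A1 alone, where pool 1 is the higher one in both groups. SLC6A11 lies at 142 and 161 CPM in the follicular pools and at 76.6 and 83.6 CPM in the anestrus pools.

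Among the vesicular glutamate transporters, SLC17A6 (gene 102185064) encodes the form that most glutamate neurons of the hypothalamus use. Its level, with pool 1 first here and below, was 123 and 158 CPM in the follicular phase against 88.5 and 102 CPM in anestrus. Both follicular pools lay above both anestrus pools, but the follicular pools differed from each other by more than follicular pool 1 differed from anestrus pool 2. The mean was 141 ± 24.7 CPM against 95.1 ± 9.44 CPM (SD, n = 2 pools each), a log2 fold change of 0.56 ± 0.18 (SE) with a 95% interval from 0.17 to 0.96 and an adjusted p of 0.363 (edgeR). These values rest on 1262 to 3135 counts per pool.

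SLC17A7 (gene 102169042) encodes the transporter best known from neurons of the cerebral cortex and hippocampus, and was close to the lower end of what these libraries measure. The follicular pools held 140 and 68 of its counts, the anestrus pools 22 and 21. As levels these were 5.51 CPM (exact 95% Poisson interval 4.64 to 6.50, counting error only) and 3.95 CPM (3.07 to 5.01) in the follicular pools against 1.54 CPM (0.967 to 2.33) and 1.17 CPM (0.722 to 1.78) in the anestrus pools. The counting intervals of the 2 groups did not meet. Its log2 fold change of 1.81 ± 0.43 was the furthest from 0 of the 8, with 0.197% of all tested genes above it. The fold of 3.51 had a 95% interval from 1.81 to 6.82 and an adjusted p of 0.218 (edgeR).

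Transcription factors of cortical glutamate neurons were at or near the detection limit beside this result. TBR1 had 3 to 7 counts per pool, NEUROD2 0 to 2 and NEUROD6 2 to 11, too few to be tested. TTR, the most abundant transcript of the choroid plexus, was at 252 and 27.4 CPM in the follicular pools and at 61.1 and 17.7 CPM in the anestrus pools. Of 5 choroid plexus and ependyma markers, 2 had both follicular pools above both anestrus pools, as SLC17A7 and 17.6% of all genes had. They were KCNJ13 (4.96 and 3.43 CPM against 3.29 and 2.78 CPM) and FOXJ1 (7.91 and 7.15 CPM against 6.73 and 3.66 CPM). CLIC6 lay the other way, as 20.7% of all genes did, and the groups overlapped for the others. The part of neighbouring tissue in the SLC17A7 difference was not tested.

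SLC17A8 (gene 102169078) encodes the third vesicular glutamate transporter, known from scattered neurons that often release another transmitter too. It was at 6.73 and 6.51 CPM in the follicular pools, and at 3.93 and 4.66 CPM in the anestrus pools, from 56 to 171 counts. The groups did not overlap, and the log2 fold change was 0.62 ± 0.33 with a 95% interval from -0.12 to 1.36 and an adjusted p of 0.681 (edgeR). That interval holds both no difference and a fold of 2.57.

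Of the GABA-synthesizing enzymes, GAD1 (gene 102190646) encodes the form that supplies most of the basal GABA of a neuron, and GAD2 (gene 102178638) the form attached to synaptic vesicles. GAD1 was at 144 and 154 CPM in the follicular pools and at 136 and 120 CPM in the anestrus pools. The lowest follicular and the highest anestrus pool were thus close, and the log2 fold change was 0.22 ± 0.16, with a 95% interval from -0.14 to 0.57 and an adjusted p of 0.794 (edgeR). GAD2 was at 154 and 161 CPM in the follicular pools and at 116 and 113 CPM in the anestrus pools. Here the pools of each group lay close together and the groups apart, at 158 ± 4.95 CPM against 114 ± 2.27 CPM (SD, n = 2 pools each). The log2 fold change of GAD2 was 0.46 ± 0.16, with a 95% interval from 0.12 to 0.81 and an adjusted p of 0.4 (edgeR). Counts of GAD2 per count of GAD1, a ratio that no library scaling affects, were 1.07 and 1.04 in the follicular pools against 0.850 and 0.935 in the anestrus pools. The ratio was therefore higher in both follicular pools, with no test made of it, and its absolute size has no meaning without transcript lengths.

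SLC32A1 (gene 102180509), whose product loads GABA and glycine into vesicles, was the 1 gene of the 8 whose groups overlapped. The follicular pools held 34.5 CPM (pool 1) and 21.7 CPM (pool 2), the anestrus pools 26.6 CPM (pool 1) and 15.8 CPM (pool 2). Pool 1 exceeded pool 2 in both groups, by 0.66 on the log2 scale in the follicular phase and by 0.75 in anestrus, more than the log2 fold change of 0.41 ± 0.31 between the groups (adjusted p = 0.801, edgeR). SLC6A11 shared this order, with smaller gaps of 0.18 and 0.13. The other GABA genes did not: GAD1 differed between the pools of a group by -0.10 and 0.18, GAD2 by -0.06 and 0.04, and ABAT by -0.11 and -0.02. Without follicular pool 1 the log2 fold change of SLC32A1 was 0.06, while leaving out anestrus pool 2 gave 0.12. It was 0.70 when follicular pool 2 was left out and 0.84 when anestrus pool 1 was, so the size of its difference is set by which pools enter.

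SLC6A11 (gene 102188093), the GABA transporter of astrocytes, was at 161 and 142 CPM in the follicular pools and at 83.6 and 76.6 CPM in the anestrus pools. Both follicular pools were well above both anestrus pools, at 151 ± 13.0 CPM against 80.1 ± 4.96 CPM (SD, n = 2 pools each). The log2 fold change was 0.92 ± 0.17, a fold of 1.89 with a 95% interval from 1.47 to 2.43. Its adjusted p of 0.066 (edgeR) missed the threshold, and 7 of 14 other settings put it past. These were upper-quartile scaling (adjusted p = 0.0498), the DESeq2 Wald test (0.000972), no count filter (0.000473), a replicate block by either set of pool numbers (0.0231 and 0.0103), and the fits without anestrus pool 1 (0.000105) or anestrus pool 2 (0.00115). Leaving out a pool also removes the spread within its group. Without follicular pool 1 the adjusted p was 1, at a log2 fold change of 0.84. Over the 14 settings the log2 fold change ran from 0.84 to 1.00.

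ABAT (gene 100861058), the mitochondrial enzyme that removes GABA in neurons and glia, had the most counts of the 8, at 6206 to 15002 per pool. It was at 590 and 639 CPM in the follicular pools and at 435 and 443 CPM in the anestrus pools. The anestrus pools were nearly equal and both follicular pools lay above them, with a log2 fold change of 0.49 ± 0.15 and a 95% interval from 0.15 to 0.82 (adjusted p = 0.349, edgeR). Counts of SLC6A11 per count of ABAT were 0.272 and 0.222 in the follicular pools against 0.192 and 0.173 in the anestrus pools.

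**Figure D2:**
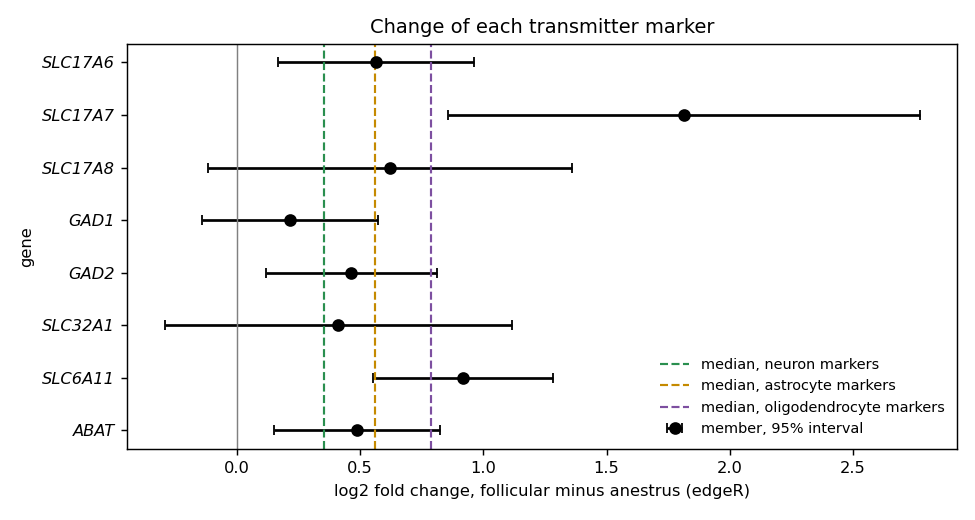
Log2 fold change of each gene, follicular minus anestrus, from edgeR with its 95% interval, and dashed lines at the median log2 fold change of neuron (0.35), astrocyte (0.56) and oligodendrocyte (0.79) markers. The intervals of SLC17A8, GAD1 and SLC32A1 include 0, and those of the other 5 genes do not before adjustment for the number of genes tested.

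The glutamate and GABA sides can be set against each other within a library. Counts of SLC17A6 per count of GAD2 were 0.801 and 0.982 in the follicular pools against 0.764 and 0.904 in the anestrus pools, so the groups overlapped. Per count of GAD1 the values were 0.857 and 1.03 against 0.650 and 0.846, where the lowest follicular and the highest anestrus pool were nearly equal. Per count of SLC32A1 they were 3.58 and 7.28 against 3.32 and 6.46, which overlapped and followed the pool number. No test was made of these ratios. Counts of SLC17A7 per count of SLC17A6 were 0.0447 and 0.0250 in the follicular pools against 0.0174 and 0.0115 in the anestrus pools, without overlap.

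General neuron markers were also at higher fitted levels in the follicular phase, with 13 of 13 tested genes above 0, 0 called and a median log2 fold change of 0.35. SYT1, the calcium sensor of vesicle release, had a log2 fold change of 0.47 ± 0.16, SYP, a vesicle membrane protein, 0.42 ± 0.15, and SNAP25, of the fusion machinery, 0.35 ± 0.16. Over the 13 markers the log2 fold change ran from 0.0063 to 0.62. The unadjusted p (edgeR) was under 0.05 for 4 of the 13, all higher in the follicular phase. Of all genes, 4.26% had such a p in that direction and 49.9% had a log2 fold change above 0. When the mean log2 CPM of these 13 markers was subtracted in each pool, the difference between groups in mean log2 CPM was 0.25 in place of 0.56 for SLC17A6, 0.16 in place of 0.46 for GAD2 and -0.09 in place of 0.22 for GAD1. For GAD1 both anestrus pools were then above both follicular pools. It was 1.41 for SLC17A7 and 0.61 for SLC6A11, and neither gene's groups overlapped. SLC17A6, SLC17A8 and SLC32A1 overlapped on this scale.

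**Figure D3:**
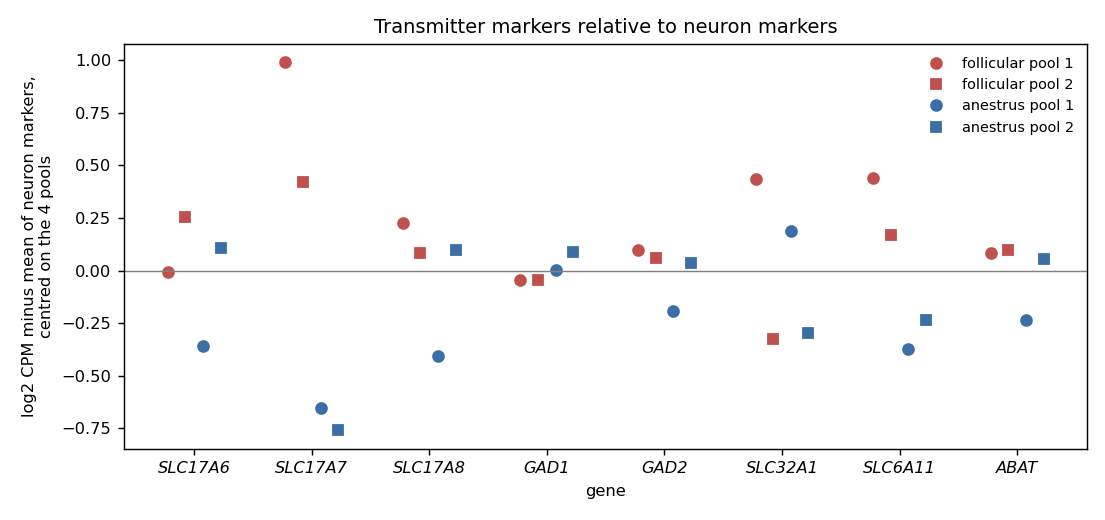
Log2 CPM of each gene minus the mean log2 CPM of the 13 neuron markers in the same pool, centred on the 4 pools. On this scale the groups lie apart for SLC17A7 and SLC6A11, are separated by small gaps for GAD1, GAD2 and ABAT, and overlap for SLC17A6, SLC17A8 and SLC32A1.

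Of 8 astrocyte markers, 1 was called, higher in the follicular phase, and 7 were not. Of all genes, 0.0119% were called in that direction. All 8 had a log2 fold change above 0, where 49.9% of all genes did, with a median of 0.56. Their summed level was 8900 to 9530 CPM in the follicular pools and 5354 to 5504 CPM in anestrus. GFAP, the astrocyte intermediate filament, was higher in the follicular phase (log2 fold change 1.01 ± 0.15, adjusted p = 0.0316, edgeR) and was the 1 astrocyte marker called. That call was lost without follicular pool 1 (adjusted p = 0.698) and without follicular pool 2 (0.0525). S100B, a calcium-binding protein, and GJA1, the astrocyte connexin, had 0.56 ± 0.16 and 0.58 ± 0.17. Relative to the mean of the 8 astrocyte markers, the difference of SLC6A11 was 0.30 on the log2 scale, with follicular pools at 0.26 and 0.04 and anestrus pools at -0.21 and -0.09. That of SLC17A7 was 1.10. The other 6 genes were below 0 on this scale, at -0.40 for GAD1 and -0.15 for GAD2, where both anestrus pools were above both follicular pools, and at -0.20 for SLC32A1, -0.13 for ABAT, -0.06 for SLC17A6 and -0.0017 for SLC17A8, where the groups overlapped. The part of the astrocyte share in the SLC6A11 difference was not tested.

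Of the 10 oligodendrocyte markers, all were above 0, beside 49.9% of all genes, and 0 were called, with a median log2 fold change of 0.79. Examples were MYRF, a transcription factor of myelination, at 1.29 ± 0.33, and OPALIN, a membrane protein of oligodendrocytes, at 0.74 ± 0.20. Their summed level was 3571 and 4827 CPM in the follicular pools, and 3024 and 1947 CPM in the anestrus pools. Pituitary markers lay the other way, with 5 of 6 below 0, 0 called higher and 2 called lower in the follicular phase, TSHB, the thyrotropin beta subunit, and CGA (log2 fold changes -7.45 ± 0.30 and -1.30 ± 0.18). Of 6 tanycyte markers, DIO2, the deiodinase that activates thyroid hormone, was called lower (-1.20 ± 0.17) and 5 were not called. Without follicular pool 1 neither CGA (adjusted p = 0.417, edgeR) nor DIO2 (0.753) passed, and DIO2 also missed without follicular pool 2 (0.0638). None of 6 microglia, 5 choroid plexus and ependyma or 5 vascular markers was called. Among these, P2RY12 of microglia had a log2 fold change of 0.62 ± 0.23, CLIC6 of choroid plexus -0.68 ± 0.25 and FLT1 of endothelium 0.24 ± 0.22. CLIC6 was the 1 choroid plexus and ependyma marker below 0, with 4 above 0 and a list median of 0.54. The parts of these cell types in the differences of the 8 genes were not tested.

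**Figure D4:**
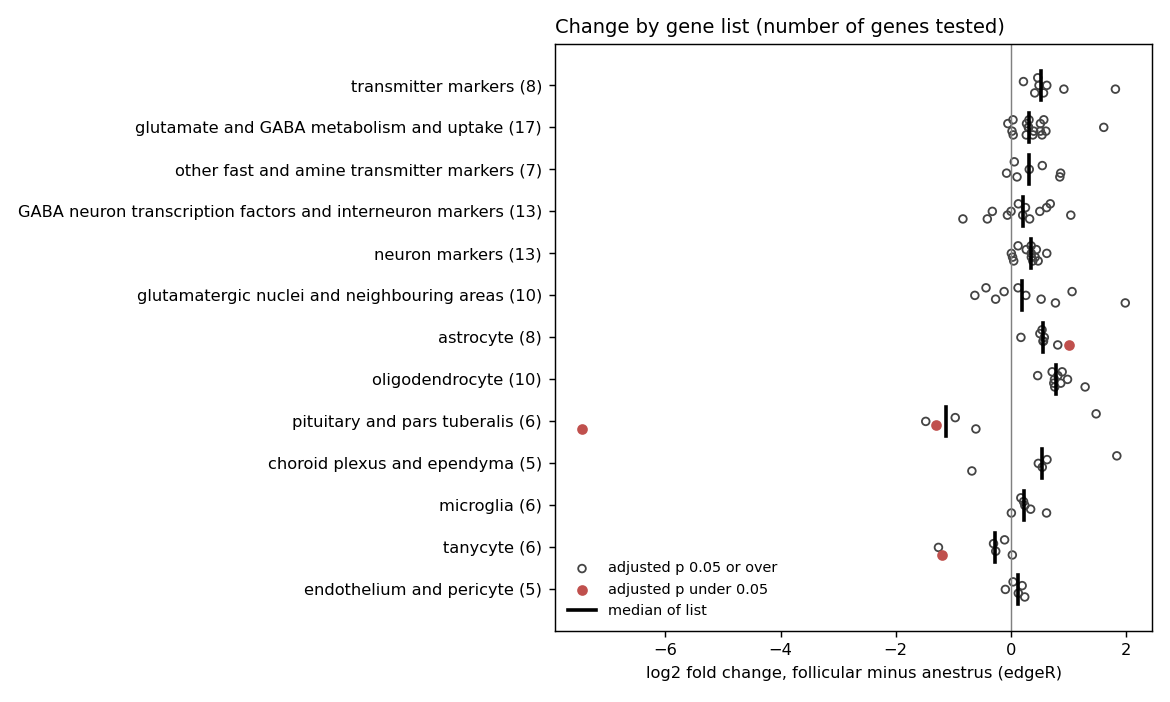
Log2 fold change, follicular minus anestrus, of each tested gene by list, with the number tested in brackets, a bar at the list's median and filled points for genes with an adjusted p under 0.05 in edgeR. The 8 transmitter markers have a median of 0.53, nearest to choroid plexus and ependyma (0.54) and astrocyte (0.56) markers. It lies between the medians of neuron (0.35) and oligodendrocyte (0.79) markers. The 4 filled points are GFAP, TSHB, CGA and DIO2.

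Other genes that make, recycle or take up glutamate and GABA gave 16 of 17 tested members above 0, beside 49.9% of all genes. In either direction 0 were called, and the median log2 fold change was 0.31. At an unadjusted p under 0.05 (edgeR) there were 2, both higher in the follicular phase, beside 4.26% of all genes in that direction. SLC1A3, a glutamate transporter of astrocytes and tanycytes, was at 1534 and 1942 CPM in the follicular pools and at 1220 and 1172 CPM in anestrus, with a log2 fold change of 0.54 ± 0.17. SLC1A2, the other main astrocyte glutamate transporter, had 1.61 ± 0.64, but it was uneven in anestrus, at 5.89 and 22.5 CPM beside 35.8 and 51.8 CPM in the follicular pools. The log2 fold change of SLC1A2 became 0.96 when anestrus pool 1 was left out (adjusted p = 0.00784, edgeR) and 2.93 when anestrus pool 2 was (3.81e-17). A replicate block gave an adjusted p of 6.03e-05 by title numbers and 0.0546 by library-name numbers, beside 0.595 with no block. GLUD1, glutamate dehydrogenase, was at 0.04 ± 0.15, beside 0.31 ± 0.15 for GLUL, the glutamine synthetase of astrocytes. GLUD1 and GLUL were named after their values were seen.

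Markers of other transmitters were mostly scarce. SLC6A5, the glycine transporter of glycine neurons, had 0 counts in every pool, and CHAT, the enzyme of acetylcholine synthesis, had 1 to 10. Of 11 such genes 7 were tested, 6 of them above 0, beside 49.9% of all genes, and 0 called, with a median log2 fold change of 0.32. SLC6A9, the glycine transporter found mainly on glia, was at 43.6 and 37.1 CPM in the follicular pools against 24.6 and 20.3 CPM in the anestrus pools, which gave 0.85 ± 0.22 on the log2 scale (adjusted p = 0.254, edgeR). HDC, which makes histamine, had 0.86 ± 0.71, with anestrus pools at 56.4 and 14.7 CPM and an adjusted p of 0.843 (edgeR). It passed with a replicate block by title numbers (0.0079) and without anestrus pool 1 (log2 fold change 2.13, adjusted p = 1.97e-13). Leaving out anestrus pool 2 gave a log2 fold change of 0.23. SLC18A2, the vesicular transporter of amines, had 0.32 ± 0.34 and was below 0 without follicular pool 2 (-0.15) and without anestrus pool 2 (-0.01).

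Transcription factors and peptides of GABA neurons did not share 1 direction, with 9 of 13 above 0, beside 49.9% of all genes, and 4 below. The number called was 0, and the median log2 fold change was 0.20. ISL1, a homeobox factor of arcuate neurons, had the smallest p of them and lay the other way from the GAD genes. It was at 70.1 and 62.2 CPM in the follicular pools and at 130 and 106 CPM in the anestrus pools, a log2 fold change of -0.83 ± 0.18 with an adjusted p of 0.155 (edgeR). It passed in 6 of 14 other settings: the DESeq2 Wald test (0.0207), no count filter (0.00393), a replicate block by library-name (0.0355) or title numbers (0.0425), and without anestrus pool 1 (0.0189) or 2 (0.000309). Without follicular pool 1 its adjusted p was 1. ISL1 is also expressed by pituitary cells, whose summed markers were at 11296 to 14537 CPM in the same anestrus pools, and their part in its difference was not tested. Calcium-binding proteins of interneurons were on the other side, with 1.04 ± 0.37 for PVALB and 0.50 ± 0.20 for CALB2. DLX1, a homeobox factor of GABA neurons, was at 25.1 and 25.2 CPM against 23.3 and 22.7 CPM, a log2 fold change of 0.13 ± 0.22 (named after its values were seen).

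Genes of glutamatergic nuclei and neighbouring areas also lay on both sides of 0, with 10 of 14 tested, 6 above 0 and 4 below. That is beside 49.9% of all genes above 0, with 0 of the list called and a median of 0.19. SIM1, a factor of the paraventricular nucleus, was at 4.45 and 11.5 CPM in the follicular pools and at 2.59 and 1.44 CPM in the anestrus pools (log2 fold change 1.98 ± 0.52, adjusted p = 0.278, edgeR). SIM1 passed in 5 of 14 other settings: the DESeq2 Wald test (0.036), no count filter (0.000455), a replicate block by title numbers (0.0248), and without anestrus pool 1 (6.83e-05) or 2 (0.0151). Without follicular pool 2 its log2 fold change was 1.15 (adjusted p = 0.999). FEZF1, of the ventromedial nucleus, had 0.52 ± 0.24, while SOX14 had -0.63 ± 0.29. NR5A1, which also marks the ventromedial nucleus and is expressed by pituitary gonadotrophs, had -0.43 ± 0.27 and was named after its values were seen.

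Patterns over the 4 pools were compared among 11715 genes with a symbol and at least 5 CPM, by the root mean square difference of log2 CPM centred on the pools. Nearest to SLC17A6 were FAM122B (0.016), RTP1 (0.020) and KCNQ3, a neuronal potassium channel subunit (0.027). Nearest to SLC32A1 were GAK, a kinase of clathrin uncoating (0.013), LRRC73 (0.025) and PLPPR3, a neuronal membrane protein (0.025). Over only 4 libraries many genes lie close, with 95 within 0.1 of SLC17A6 and 133 within 0.1 of SLC32A1.

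**Figure D5:**
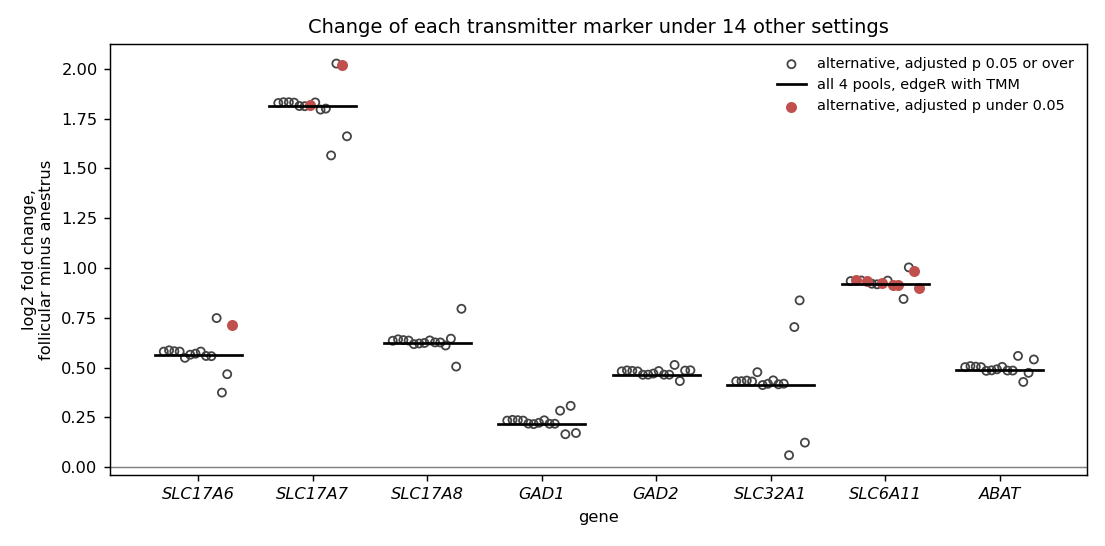
Log2 fold change of each gene, follicular minus anestrus, under 14 other scalings, tests, filters, replicate blocks and sets of pools, with a line at the value from all 4 pools. Filled points have an adjusted p under 0.05, in 7 settings for SLC6A11, 2 for SLC17A7, 1 for SLC17A6 and 0 for the other 5 genes. All points lie above 0.

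Across those settings the fitted change stayed above 0 for each of the 8 genes in all 14, which share the same 4 libraries. SLC17A7 passed in 2 of them, without a count filter (adjusted p = 0.0151) and without anestrus pool 1 (0.00919), over a range from 0.00919 to 1. SLC17A6 passed without anestrus pool 2 (0.0194), over a range to 1, and its log2 fold change ran from 0.37 without follicular pool 2 to 0.75 without follicular pool 1. GAD1, GAD2, ABAT, SLC17A8 and SLC32A1 passed in 0 settings, with log2 fold changes of 0.43 to 0.51 for GAD2 and 0.43 to 0.56 for ABAT.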

How the data were processed

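RNA was extracted with TriReagent and made into stranded, polyadenylated-RNA libraries, per the labels' protocols. The authors deposited raw read counts per gene. The submitters' processing notes name featureCounts 2.0.0, TopHat2 2.1.1 and Bowtie2 2.3.5.1, and also SAMtools 1.9, FastQC and bcl2fastq 2.20. Not given in the sources used here were the genome build, annotation, strand setting and handling of multiply mapped reads, so no coordinates are printed and antisense overlap cannot be judged. The anestrus pools carry swapped numbers in titles and library names, and those of the library names were used.

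Genes were kept with filterByExpr (minimum count 10, minimum total 15), given TMM factors and fitted in R 4.3.3 by edgeR 4.0.16 (glmQLFit with robust estimation, glmQLFTest, 2 residual degrees of freedom). P-values are 2-sided, adjusted by Benjamini-Hochberg over 16756 genes and called under 0.05. Each ± after a log2 fold change is its standard error. Log2 CPM used a prior count of 2. DESeq2 1.42.0 and limma 3.58.1 were alternatives. The edgeR steps were tested on simulated data.

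The 8 genes and all lists were chosen with earlier results of these data known. Named genes are the 8, every called gene and the 3 smallest p of each list, and the 3 nearest patterns to SLC17A6 and SLC32A1. SLC6A12, TUBB3 and PRL matched no symbol. The results of some genes that the rule names are not reported here.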

Additional observations from a re-analysis of the deposited data

How the results depend on the processing

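Of the 8 transmitter markers, 0 passed with all 4 pools in edgeR, 1 with upper-quartile scaling, 1 in the DESeq2 Wald test, 2 without a count filter and 1 with a replicate block by either numbering. Over all genes, 34 passed, against 143 in DESeq2 and 300 without a count filter. List genes called numbered 4, against 8 in DESeq2 and 16 without a count filter. With a replicate block, 90 genes passed by the library-name numbers and 130 by the title numbers, and 15 list genes by the latter. Whether the numbers pair the pools is not stated: the gap between pools 1 and 2 correlated at r = 0.26 over 16756 genes by library names and -0.26 by titles. Leaving out 1 pool gave 4 to 818 genes (4 without follicular pool 1, 818 without anestrus pool 1, 555 without anestrus pool 2), 0 to 2 of the 8, and 1 to 28 list genes. The median log2 fold change of the 8 then ran from 0.4952 to 0.6264. The lone pool is assumed to vary like the other group. The cause of these shifts was not tested, beyond the smaller number of pools. Leaving out 1 pool reversed a sign for C1QA (log2 fold change -0.0155 to 0.4656), PDGFRB (-0.0441 to 0.2919), PECAM1 (-0.2455 to 0.0548), SLC18A2 (-0.149 to 0.8102) and RAX (-2.789 to 0.337). Depth limits SLC17A7 and SLC17A8 most.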

Other observations

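Several list genes differed more between the pools of a group than between groups. TTR was at 252 CPM in follicular pool 1 and 27.4 CPM in follicular pool 2. TH, which makes the dopamine precursor, was at 11.7 and 4.82 CPM in the follicular pools and at 11.8 and 3.83 CPM in the anestrus pools, and SST, an inhibitory peptide, at 154 and 87.1 CPM and at 105 and 52.1 CPM. Both had pool 1 above pool 2 in each group, as SLC32A1 had.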
